A study of Homo sapiens with 4 samples.

Results

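Genes that the tumour suppressor p53 is known to switch on were followed in HEK293T cells whose RNA polymerase II carried either a T4A or a wild-type (WT) tail. The set held 31 named genes of the p53 pathway, found by symbol among the 62700 genes of the count tables, and all 31 passed the filter on low counts that left 18139 genes for testing. HEK293T is a human embryonic kidney cell line. In the T4A group (2 libraries) the cells were transfected with RPB1, the largest Pol II subunit, in which threonine 4 of the heptads of its C-terminal domain (CTD) was changed to alanine, and in the WT group (2 libraries) with RPB1 of unchanged CTD sequence. Both constructs are resistant to α-amanitin, which was given to both groups at 2.5 µg/ml from 1 day after transfection for 48 hours to remove the cells' own RPB1, and there was no group without the toxin. Transfection was transient, and poly(A) RNA of whole cultures was sequenced, so fewer cells and less RNA per cell cannot be told apart.

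p53 is a transcription factor that is held low by the ubiquitin ligase MDM2 and is stabilised by DNA damage, blocked transcription and other stresses. It then binds response elements made of a pair of half-sites and induces genes for cell cycle arrest, DNA repair, apoptosis, metabolism and its own inhibition, the last among them MDM2 itself. In HEK293T cells p53 is abundant but is bound by viral oncoproteins, large T antigen of SV40 and proteins of adenovirus, which restrain its activity as a transcription factor. The count tables cover human genes, and the viral transcripts were not analysed here.

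The 4 libraries held 19257217 to 33063535 counts, and the members took 0.125% to 0.129% of them. POLR2A, the gene of the transfected RPB1, was measured at 5378 and 5477 CPM (counts scaled by library size and TMM factor) in T4A cells, against 3772 and 2764 CPM in WT cells. Transcripts of the construct and of the cells' own gene are counted together there, so the labels cannot be checked from this value, and its part in the results was not tested. Of 5 markers often seen in HEK293T cells (LIN28B, IGF2BP1, PAX2, NEFM, VIM), all had at least 55 counts in each library, with VIM higher and LIN28B and IGF2BP1 lower in T4A cells. Their part in the results was not tested. Of 7 markers of other cell types, 6 were found by symbol, with KRT5 and HBB at 0 counts throughout and a summed level of 0.793 and 2.13 CPM in T4A cells against 0.805 and 1.29 CPM in WT cells.

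The promoters of the members were searched for a p53 site, since that is the feature by which p53 finds its targets. RefSeq promoter windows (GRCh38.p14, 250 bases before to 50 after the start of a transcript) were matched for 26 of the 31 members. A match was a run of 20 bases made of 2 adjacent p53 half-sites, each with a core of C, then A or T at both middle positions, then G, with both cores intact and at most 3 other mismatches. The pattern reads alike on both strands. A match was present for 4 of the 26 members (15.4%), against 143 of 27305 genes in the table (0.524%). With at most 2 mismatches it was present for 2 members (7.69%), AEN and FAS, against 55 genes (0.201%). The members were listed as p53 targets, so this describes the list. Many known p53 sites lie outside such windows, as in the distal promoter of CDKN1A. The MDM2 windows were searched and held no match under this rule, which does not show that they lack a p53 site. The rule needs both cores intact, so a site with another core is not found. The 4 matches are shown as sequence that resembles a p53 site, and binding of p53 to them was not measured. The 20 bases of each match are in capitals, and their positions are given for AEN, FAS and SESN1.
GDF15 promoter, chr19:18385908-18386207, plus strand: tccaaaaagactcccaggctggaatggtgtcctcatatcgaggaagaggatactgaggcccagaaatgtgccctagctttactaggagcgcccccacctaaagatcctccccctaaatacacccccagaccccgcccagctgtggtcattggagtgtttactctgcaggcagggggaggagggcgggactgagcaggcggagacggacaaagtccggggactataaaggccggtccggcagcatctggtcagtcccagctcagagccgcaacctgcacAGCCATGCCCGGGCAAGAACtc
AEN site, chr15:88621306-88621325, plus strand: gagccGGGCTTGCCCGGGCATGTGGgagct
FAS site, chr10:88991309-88991328, plus strand: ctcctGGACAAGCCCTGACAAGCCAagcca
SESN1 site, chr6:109009018-109009037, minus strand: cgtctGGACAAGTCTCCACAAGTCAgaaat
The GDF15 match began 28 bases downstream of the transcript start, and those of AEN, SESN1 and FAS began 34, 49 and 122 bases upstream of theirs. FAS and SESN1 also had windows at transcript starts further upstream, which held no match. Among these 4 genes, GDF15 alone was called different between T4A and WT cells in expression, beside 23.6% of all genes tested. The log2 fold changes of AEN, FAS and SESN1 were 0.24, 0.54 and 0.11.

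T4A was compared with WT to ask how transcripts differ when Thr4 is replaced. Of the 31 members, 9 were higher in T4A cells and 3 were lower at an adjusted p under 0.05, and 19 did not pass. GDF15 was 3.35-fold higher, PLK2 and PPM1D were 1.62-fold and 1.53-fold higher, and FDXR, TP53TG1, SESN2, GADD45A, TRIAP1 and PIDD1 were between 1.24-fold and 1.44-fold higher. TP53INP1, TIGAR and BTG2 were lower, to 0.593, 0.705 and 0.796 of their WT level. The higher members were 29.0% of the list, beside 10.7% of all genes tested, and the lower members were 9.68%, beside 13.0%. With a change over 1.5-fold required as well, 3 members were higher and 1 was lower, beside 2.11% and 5.30% of all genes. The median log2 fold change of the members was 0.14, with a range from −0.75 to 1.74, beside −0.01 over all genes tested. The T4A libraries both lay above both WT libraries for 16 members (28.5% of all genes tested did so) and both below for 10 members (30.5% of all genes), and 5 members overlapped.

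The counts rested in part on single libraries: without WT replicate 2, 4 members were higher and 1 lower (1424 and 1674 over all genes), and without T4A replicate 2, 9 were higher and 5 lower (2036 and 2583). The balance of these calls moved with the scaling. With upper quartile normalization 13 members were higher and 2 lower, and with library totals alone 6 were higher and 6 lower. Over all genes the same alternatives gave 2690 higher and 1718 lower, and 1352 higher and 2987 lower. Calls of 4 members, FDXR, PIDD1, GDF15 and TP53INP1, held without each library in turn, and none of the 12 called members changed direction under any alternative run.

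**Figure D1:**
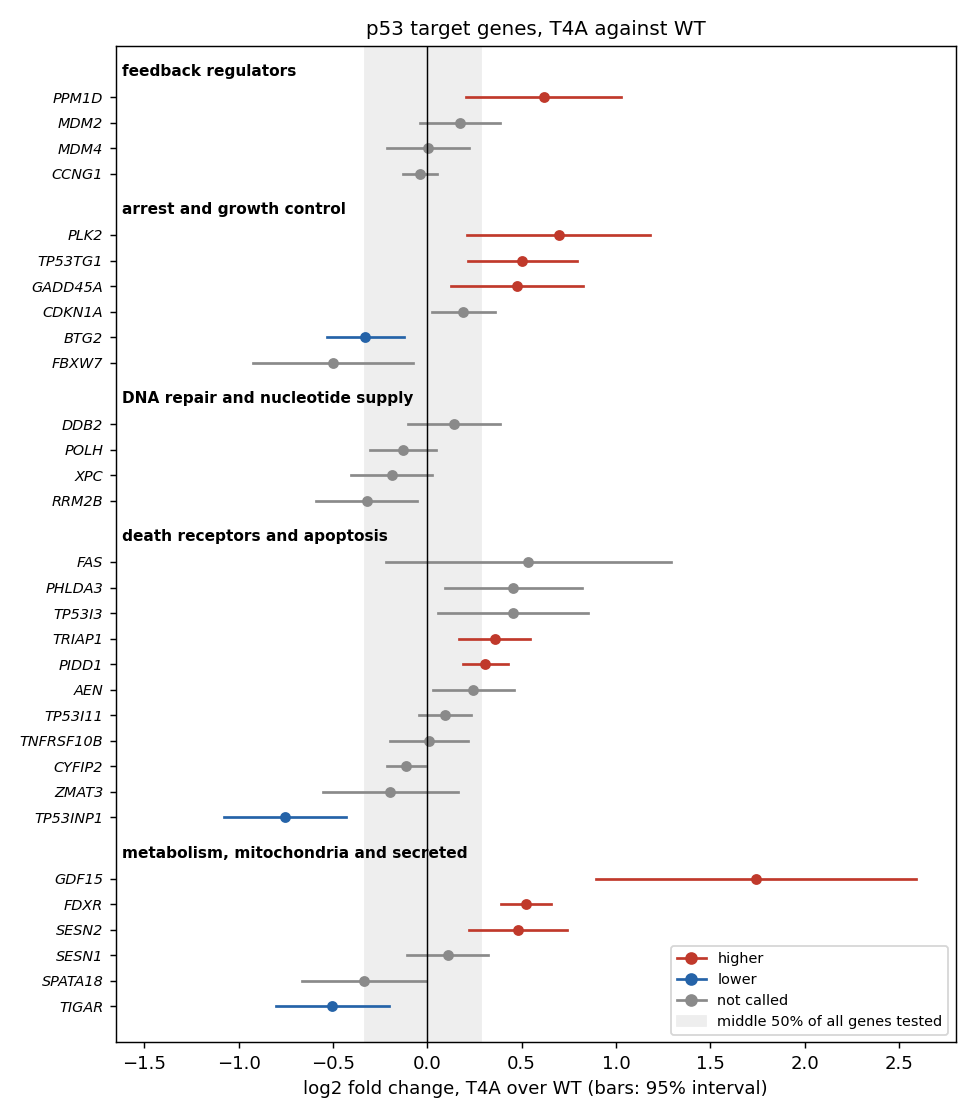
The 31 p53 target genes by role, with the log2 ratio of T4A to WT on the horizontal axis, each with its 95% interval from the edgeR fit. Red points were called higher (9), blue points lower (3) and grey points were not called (19), and the shaded band spans the middle 50% of all 18139 genes tested.

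Among the feedback regulators of p53, PPM1D was called and MDM2, MDM4 and CCNG1 were not. PPM1D (chromosome 17, 60600193 to 60666280, GRCh38) encodes the Wip1 phosphatase, which removes phosphates from p53 and from damage kinases. It was measured at 9.61 and 7.66 CPM in T4A libraries, against 5.52 and 5.78 CPM in WT libraries. Both T4A libraries were above both WT libraries, and the log2 fold change was 0.62 ± 0.20 (SE, n = 2 each, edgeR adjusted p = 0.0273). The PPM1D call was lost without T4A replicate 1 (edgeR adjusted p = 0.171), with either WT library left out (0.156 without replicate 1, 0.0983 without replicate 2), and with library totals alone (0.0554).

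MDM2 (chromosome 12, 68808172 to 68850686), the ligase that marks p53 for degradation and a sensitive readout of p53 activity, stood at 25.2 and 26.1 CPM in T4A libraries, against 22.9 and 22.6 CPM in WT libraries. The T4A libraries were the higher ones, but the difference did not pass (log2 fold change 0.17 ± 0.10, 95% interval −0.04 to 0.38, edgeR adjusted p = 0.245). MDM4, the MDM2 relative that masks the activation domain of p53, had 22.4 and 22.2 CPM in T4A libraries and 22.1 and 22.4 CPM in WT libraries. Its groups overlapped, with a log2 fold change of 0.00 and an interval from −0.21 to 0.22. CCNG1, cyclin G1, which recruits a phosphatase to MDM2, was the most abundant member per length, at 87.8 CPM per kilobase of exon in T4A cells and 90.3 in WT cells, and its log2 fold change was −0.04 ± 0.04 (SE, edgeR adjusted p = 0.576).

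**Figure D2:**
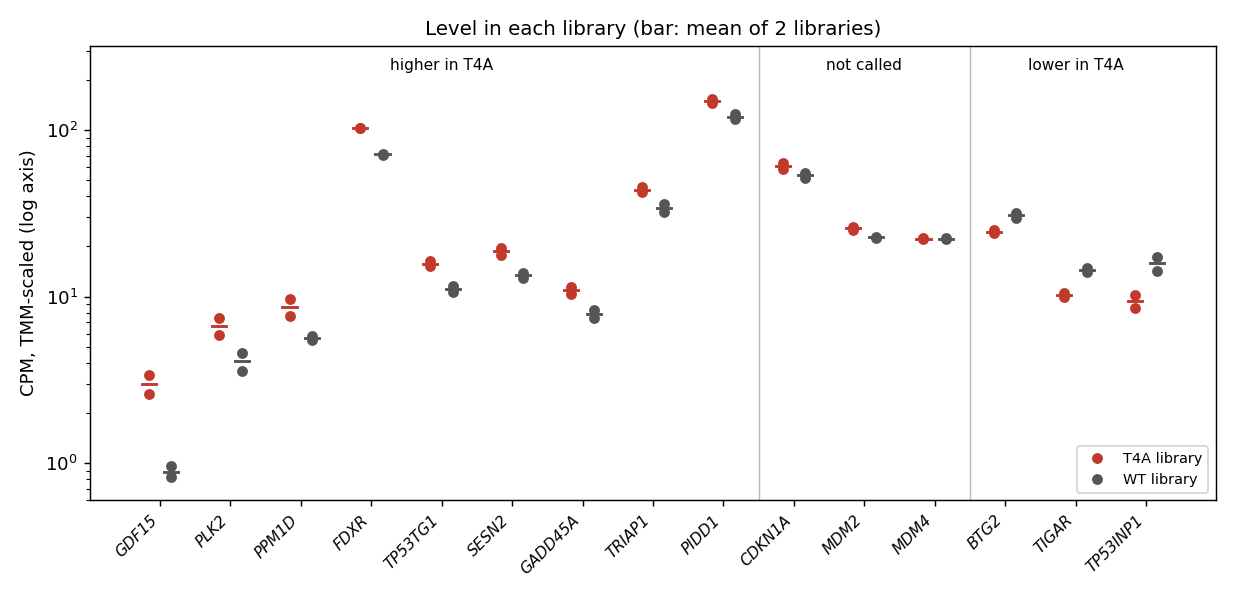
CPM (log axis) in each of the 4 libraries for the 12 called members and for CDKN1A, MDM2 and MDM4, with T4A in red on the left and WT in grey on the right of each pair, where points are libraries and bars are means. GDF15 had the lowest levels drawn and the widest gap, at 2.60 and 3.40 CPM in T4A libraries against 0.954 and 0.820 CPM in WT libraries.

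Of 6 genes of cell cycle arrest and growth control, 3 were higher and 1 was lower in T4A cells, beside 10.7% higher and 13.0% lower over all genes. CDKN1A (chromosome 6, 36676463 to 36687332), the p21 inhibitor of cyclin-dependent kinases and the best known p53 target, was not among the calls. It had 58.0 and 63.8 CPM in T4A libraries, against 51.5 and 55.2 CPM in WT libraries. Both T4A values were the higher ones, by a log2 fold change of 0.19 ± 0.08 (SE, 95% interval 0.02 to 0.36, edgeR adjusted p = 0.0939). CDKN1A passed with upper quartile normalization (edgeR adjusted p = 0.0155) and without T4A replicate 1 (0.0194).

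PLK2, a polo-like kinase that slows the cycle after stress, had 5.86 and 7.44 CPM in T4A libraries, against 4.56 and 3.59 CPM in WT libraries (log2 fold change 0.70 ± 0.23, edgeR adjusted p = 0.035). GADD45A, a stress sensor that acts in repair and growth arrest, had 10.4 and 11.5 CPM in T4A libraries and 7.39 and 8.32 CPM in WT libraries (0.48 ± 0.17, edgeR adjusted p = 0.0461). For both genes the groups did not overlap, but PLK2 was lost without T4A replicate 2 (edgeR adjusted p = 0.157) and without WT replicate 2 (0.26), and GADD45A without T4A replicate 2 (0.13), WT replicate 1 (0.305) or WT replicate 2 (0.111). Both were also lost with library totals alone (edgeR adjusted p = 0.061 for PLK2 and 0.104 for GADD45A) and with DESeq2 (0.0574 and 0.0778), and GADD45A with no filter (0.0914) and after removal of the length trend (0.177).

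TP53TG1, a long noncoding RNA named as a p53 target, had 16.3 and 15.2 CPM in T4A libraries, against 11.6 and 10.6 CPM in WT libraries (log2 fold change 0.50 ± 0.14, edgeR adjusted p = 0.0106, and 0.12 without WT replicate 2). BTG2, an antiproliferative cofactor of mRNA deadenylation, went the other way. It had 25.1 and 23.9 CPM in T4A libraries, against 29.8 and 31.8 CPM in WT libraries, a fall by 0.33 ± 0.10 on the log2 scale (edgeR adjusted p = 0.0176). The BTG2 call was lost without WT replicate 2 (edgeR adjusted p = 0.177), with upper quartile normalization (0.0756) and with DESeq2 (0.0525). FBXW7, a substrate receptor of a ubiquitin ligase for cyclin E and MYC, had a log2 fold change of −0.50 ± 0.20 (SE, edgeR adjusted p = 0.0845), and it passed without T4A replicate 1 (0.0173) and with library totals alone (0.0473).

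Genes of DNA repair and nucleotide supply gave no call among 4, beside 10.7% higher and 13.0% lower over all genes. XPC and DDB2, which recognise ultraviolet lesions for nucleotide excision repair, stood at log2 fold changes of −0.19 ± 0.10 and 0.14 ± 0.12. POLH, a polymerase that copies across such lesions, was at −0.13 ± 0.08, and RRM2B, the p53-induced subunit of ribonucleotide reductase, at −0.32 ± 0.13 (edgeR adjusted p = 0.0789). The T4A libraries were the lower ones for XPC, POLH and RRM2B and overlapped the WT libraries for DDB2. RRM2B passed as lower without T4A replicate 2 (edgeR adjusted p = 0.00272), without WT replicate 1 (0.0119), with library totals alone (0.0357), with the replicate block (0.0284) and with no filter on low counts (0.0294). For XPC, 24.6% of its exonic length lies under exons of XPC-AS1 on the other strand, which itself had 2 to 13 counts per library.

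Of 11 members tied to death receptors and apoptosis, 2 were higher (18.2%) and 1 was lower (9.09%), shares near the 10.7% and 13.0% of all genes. PIDD1 (chromosome 11, 799184 to 809501), the scaffold of a complex that activates caspase-2, had 145 and 153 CPM in T4A libraries, against 116 and 125 CPM in WT libraries. The groups were apart (log2 fold change 0.31 ± 0.06, edgeR adjusted p = 0.000446), and the call held without any one library. TRIAP1, a small mitochondrial protein that restrains apoptosis, had 42.2 and 45.2 CPM in T4A libraries, against 32.3 and 36.0 CPM in WT libraries (0.36 ± 0.09, edgeR adjusted p = 0.00604). Its call was lost without WT replicate 1 (log2 fold change 0.29) and after removal of the trend on exonic length (edgeR adjusted p = 0.0995).

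TP53INP1 (chromosome 8, 94925972 to 94949378), a cofactor of p53 in apoptosis and autophagy, was the member that fell most. It had 8.55 and 10.2 CPM in T4A libraries, against 14.3 and 17.3 CPM in WT libraries. It fell by 0.75 ± 0.15 on the log2 scale (edgeR adjusted p = 0.00111), and without a library its log2 fold change lay between −0.88 and −0.61. NDUFAF6, on the other strand, overlaps 3.99% of its exonic length and had 140 to 233 counts per library, against 192 to 479 for TP53INP1.

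The remaining 8 genes of this group did not pass. FAS, a death receptor, had 3.26 and 2.07 CPM in T4A libraries, against 1.97 and 1.72 CPM in WT libraries. Its interval was the widest of the uncalled members (log2 fold change 0.54, −0.22 to 1.29). On the other strand, ACTA2 overlaps 10.7% of the exonic length of FAS. ACTA2 had 95 to 147 counts per library, against 39 to 74 for FAS. A long noncoding RNA on that strand overlaps 25.7% and had 6 to 14 counts. PHLDA3, an inhibitor of AKT, and TP53I3, an oxidoreductase tied to oxidative stress, both stood at 0.46 (edgeR adjusted p = 0.0643 and 0.0942), with T4A libraries above WT libraries. Both passed without T4A replicate 2 (edgeR adjusted p = 0.0383 and 0.0121) and with upper quartile normalization (0.0274 and 0.0456). AEN, a nuclease that degrades DNA in apoptosis, was at 0.24 ± 0.10 (edgeR adjusted p = 0.0969, and 0.0241 with upper quartile normalization), and TP53I11, a p53-induced membrane protein, at 0.10 ± 0.07. TNFRSF10B, the TRAIL receptor DR5, had a log2 fold change of 0.01 ± 0.10. CYFIP2, of the actin-regulating WAVE complex, was at −0.11 ± 0.05 (lower with library totals alone, edgeR adjusted p = 0.00619), and ZMAT3, an RNA-binding zinc finger protein, at −0.20 ± 0.17.

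Members of metabolism and mitochondria and the secreted factor GDF15 held the largest fold change and the smallest p among the members, with 3 of 6 higher and 1 lower, beside 10.7% and 13.0% of all genes. GDF15 (chromosome 19, 18386158 to 18389176), a stress-induced cytokine that signals to the brainstem and is also induced without p53 by the integrated stress response, had 59 and 64 counts in T4A libraries, against 32 and 21 counts in the deeper WT libraries. That is 2.60 and 3.40 CPM in T4A libraries, against 0.954 and 0.820 CPM in WT libraries. The log2 fold change was 1.74 ± 0.40 (SE, edgeR adjusted p = 0.0032) and lay between 1.54 and 1.93 without any one library. It had the fewest counts of any member, down to 21 in a library.

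FDXR (chromosome 17, 74862497 to 74872994), the ferredoxin reductase that passes electrons to mitochondrial cytochromes P450 and iron-sulfur cluster synthesis, had 103 and 102 CPM in T4A libraries, against 70.9 and 72.0 CPM in WT libraries. The libraries of each group lay close together, and the log2 fold change was 0.52 ± 0.06 (edgeR adjusted p = 3.47e-06), between 0.52 and 0.53 without any one library. SESN2, a sestrin that senses leucine and restrains mTORC1, had 17.8 and 19.6 CPM in T4A libraries, against 13.8 and 13.0 CPM in WT libraries. Its log2 fold change was 0.48 ± 0.12 (edgeR adjusted p = 0.00744, and 0.0728 without WT replicate 2). The related SESN1 was at 0.11 ± 0.10 (95% interval −0.10 to 0.32), and whether the sestrins differed from each other was not tested.

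TIGAR (chromosome 12, 4321213 to 4360028), a phosphatase that lowers glycolytic flux, had 10.4 and 9.99 CPM in T4A libraries, against 14.1 and 14.9 CPM in WT libraries. It fell by 0.50 ± 0.14 on the log2 scale (edgeR adjusted p = 0.0133), a call lost with either WT library left out (0.0669 without replicate 1, 0.137 without replicate 2) and after removal of the length trend (0.215). Exons of another annotated gene on the same strand cover 18.1% of its exonic length, and that gene had 0 to 3 counts per library. SPATA18, a regulator of mitochondrial quality, was at −0.33 ± 0.16 (edgeR adjusted p = 0.14, and 0.0405 without T4A replicate 2), with both T4A libraries below both WT libraries. Across all roles, 13 of the 19 uncalled members had a 95% interval that stayed within 1.5-fold in either direction.

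The direction of a member went in part with its exonic length, the union of its annotated exons, and the length of the expressed transcript was not measured. Across the 31 members, Spearman's rho between exonic length and log2 fold change was −0.43, and across 18047 genes tested with a length it was −0.35; genes share libraries and are not independent replicates. All genes were divided into 3 bins of equal size by exonic length. In the short bin (up to 3048 bases) the median log2 fold change was 0.21 and 15.4% were higher, and in the long bin (over 6252 bases) the median was −0.21 and 28.0% were lower. The members had medians of 0.41 (n = 6), 0.24 (n = 15) and −0.06 (n = 10) in the short, middle and long bins, beside 0.21, 0.01 and −0.21 for all genes there. PPM1D (9408 bases) was the one higher member of the long bin, and BTG2 (2757 bases) the one lower member of the short bin. After a length trend was removed in each library, 10 members were higher and 2 lower (2077 and 1347 over all genes), and the median of the members was 0.26, beside 0.04 over all genes. MDM2 (log2 fold change 0.37, edgeR adjusted p = 0.0117), AEN (0.34, 0.0249) and TP53I11 (0.26, 0.00853) then passed as higher, whereas GADD45A, TRIAP1 and TIGAR no longer passed.

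**Figure D3:**
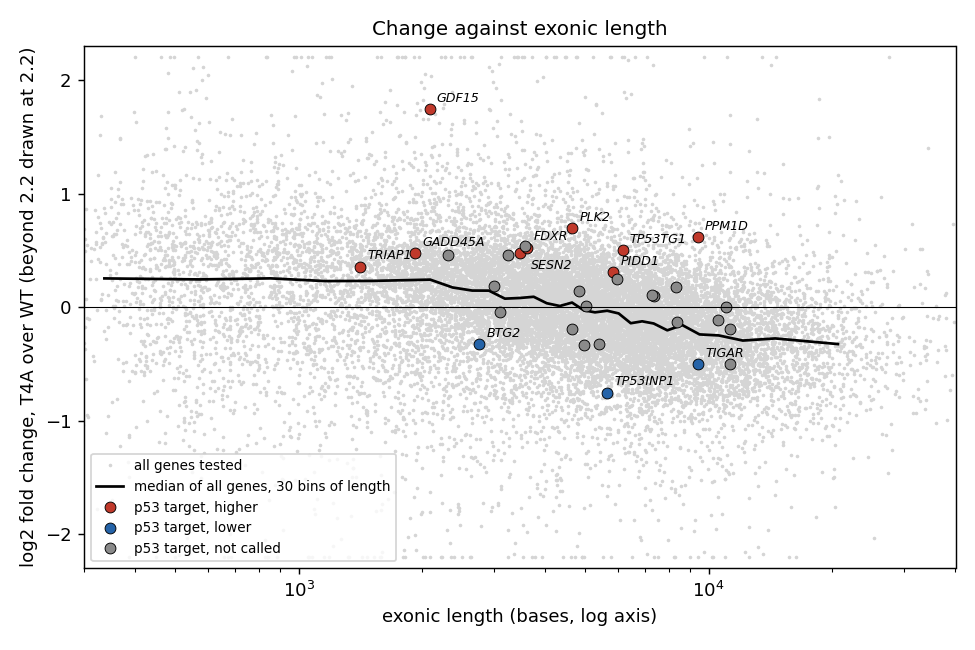
Exonic length (log axis, bases) against the log2 ratio of T4A to WT for all genes tested (grey dots, values beyond 2.2 drawn at 2.2) and the p53 targets (large points, red higher, blue lower, grey not called), with the median of all genes in 30 bins of length as a black line. The line falls with length. Points above it include PPM1D, PLK2, TP53TG1 and GDF15, and points below it include TP53INP1, TIGAR and BTG2.

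Of 22 tested genes of the p53 family and of regulators of the p53 protein, 3 were higher (13.6%) and 5 lower (22.7%), beside 10.7% and 13.0% of all genes, and the median was −0.08, beside −0.01. This list is long, with a median exonic length of 6801.5 bases, beside 4481 over all genes tested. In the long bin, 28.0% of all genes were lower. HUWE1 and HIPK2 have 17754 and 15622 exonic bases, and RPL11 and RPL5 have 2659 and 3687. The part of length in their changes was not tested. HUWE1, a giant ligase of p53 and other substrates, fell by 0.68 ± 0.05 on the log2 scale (edgeR adjusted p = 7.9e-09) and HIPK2, a kinase of p53, fell by 0.90 ± 0.07 (1.48e-08). RPL11 and RPL5, ribosomal proteins that can bind and inhibit MDM2, were higher by log2 fold changes of 0.49 ± 0.04 (edgeR adjusted p = 1.71e-08) and 0.27 ± 0.03 (1.33e-06).

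Further direct p53 targets outside the 31 were drawn from general knowledge. Of 52 tested, 9 were higher (17.3%) and 4 lower (7.69%), beside 10.7% and 13.0% of all genes, and the median was −0.05, beside −0.01. BAX, the pore-forming apoptosis effector, had 123 and 123 CPM in T4A libraries, against 93.9 and 98.7 CPM in WT libraries (log2 fold change 0.36 ± 0.06, edgeR adjusted p = 0.00011). The BH3-only genes BBC3 (PUMA) and PMAIP1 (NOXA) were at 0.22 ± 0.21 and 0.03 ± 0.07 and did not pass. GPX1, a glutathione peroxidase, and SIVA1, a proapoptotic adaptor, were higher by 0.38 ± 0.04 and 0.49 ± 0.06 on the log2 scale (edgeR adjusted p = 2.07e-06 and 2.92e-06), and ASCC3, a helicase of alkylation repair, fell by 0.64 ± 0.10 (5.61e-05).

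Cell cycle genes are known to fall when p53 acts through p21 and the DREAM repressor complex. Whether this route is open in HEK293T cells, with their viral oncoproteins, was not tested. Of 30 tested, 5 were higher (16.7%) and 4 lower (13.3%), near the 10.7% and 13.0% of all genes, and the median was 0.11, beside −0.01. TOP2A and CENPF fell by 0.52 ± 0.05 and 0.68 ± 0.09 on the log2 scale (edgeR adjusted p = 7.36e-07 and 6.67e-06), whereas MYBL2 and BIRC5 were higher by 0.28 ± 0.04 and 0.30 ± 0.04 (2.77e-05 and 2.81e-05). TOP2A untangles DNA and CENPF acts at kinetochores, MYBL2 is a transcription factor of dividing cells and BIRC5 is the survivin subunit of a mitotic kinase complex.

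**Figure D4:**
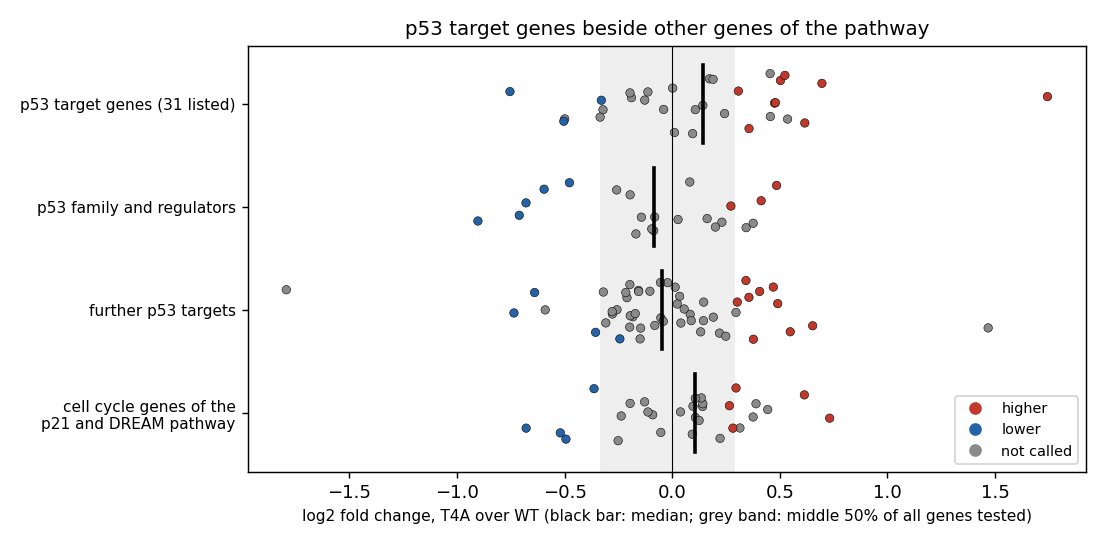
Log2 ratio of T4A to WT for the 31 p53 targets and 3 other lists of the pathway, 1 point per tested gene (red higher, blue lower, grey not called), with black bars for medians and a shaded band for the middle 50% of all genes tested. The medians were 0.14, −0.08, −0.05 and 0.11 from top to bottom, all within the band.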

How the data were processed

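Poly(A) RNA libraries were made with the NEBNext Ultra RNA kit and sequenced in pairs. The submitters' processing notes name hg38, featureCounts 2.0.1, HISAT2 2.2.1 and Trimmomatic 0.38. The authors deposited, for each library, raw fragment counts by Ensembl gene, made without use of strand, so overlapping genes on opposite strands are not told apart. The treatment of fragments with several matches was not given in the sources used here. MDM4, CCNG1, POLH and TRIAP1 have annotated pseudogenes, which had 0 counts. Symbols, exonic lengths (union of exons) and exon overlaps came from GENCODE 44 lifted to the build before hg38 (60877 identifiers found). Positions came from RefSeq on GRCh38.

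Genes were kept with filterByExpr and tested in edgeR 4.0.16 (R 4.3.3) with TMM, glmQLFit and glmQLFTest, and p-values were adjusted by Benjamini-Hochberg over 18139 genes (common coefficient of variation 0.114). Calls needed an adjusted p under 0.05. Standard errors are the log2 fold change over the root of F. With 2 libraries in each group, the smallest p of an exact permutation test is 0.333. The study calls its duplicates biological replicates, but the labels do not say if cultures were separate, and each p-value covers only library-to-library spread. Replicates differed by more than sampling noise (chi-square per degree of freedom 4.56 for T4A and 5.66 for WT). Scripts were tested on simulated data. The members and lists were chosen with earlier results of these data known. All members were named, with values per library for those called and for CDKN1A, MDM2 and MDM4, and up to 4 genes of smallest p from each other list, with BAX, BBC3 and PMAIP1. One further gene under this rule is not reported here. Alternatives were other normalizations, filters, DESeq2 1.42.0, limma-voom (limma 3.58.1), a replicate block, a length offset (loess, span 0.3) and each library left out.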

Additional observations from a re-analysis of the deposited data

How the results depend on the processing

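The counts of called members (9 higher, 3 lower) stayed within 1.5 times under most alternatives. Library totals alone gave 6 lower members, and a change over 1.5-fold as well gave 3 higher and 1 lower (382 higher and 962 lower over all genes). After removal of the length trend 1347 genes were lower over all genes, against 2351. Without 1 library, 4 to 9 members were higher (4 without WT replicate 2) and 1 to 5 lower (1 without WT replicate 2, 5 without T4A replicate 2), and over all genes 1424 to 2036 were higher and 1576 to 2583 lower. The cause of these moves was not tested. DESeq2 called 6 members higher and 2 lower (1705 and 1789 over all genes), and gave no adjusted p for GDF15 and FAS.

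Changes of sign were seen among the members and PMAIP1 only where the gene was not called. With library totals alone MDM4 was at −0.0754, TNFRSF10B at −0.0674 and PMAIP1 at −0.0436. With no filter MDM4 was at −0.0245 and TNFRSF10B at −0.0161, and with upper quartile normalization CCNG1 was at 0.0440. After removal of the length trend POLH was at 0.0747, CYFIP2 at 0.137, ZMAT3 at 0.0625 and PMAIP1 at −0.0921. Without 1 library, the log2 fold change of MDM4 ranged between −0.0049 and 0.0099, of TNFRSF10B between −0.118 and 0.124, of ZMAT3 between −0.439 and 0.0232 and of PMAIP1 between −0.0429 and 0.123.

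With the replicate number as a block (replicate block), 9 members were higher and 4 lower (2012 and 2432 over all genes), RRM2B being the one added, and no other call of a member changed. The labels give no shared batch or day, and the deviations of same-numbered libraries correlated at −0.004, so the numbers are not taken as pairs.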
